A study of Mus musculus with 2 samples.

Results

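Tetrahydrobiopterin is a cofactor made from GTP, and the genes described here are Gch1 and 6 others that make, regulate or regenerate it. Gch1 was chosen by its ratio between the arrays, which was among the lowest in the series. Pts, Spr, Gchfr, Pcbd1, Pcbd2 and Qdpr were added from knowledge of the pathway. All 7 genes were matched by symbol to the annotation of the array, and each had 1 probe set, so the set held 7 of the 19938 genes measured. No probe set annotated to several genes carried any of these symbols.

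The samples were 2 Affymetrix arrays, and each measured the RNA of cortical thymic epithelial cells (cTECs) from NOD mice at day 7. One array held RNA of cTECs from 7 Aire transgenic mice (Tg), in which the promoter of the β5t gene, Psmb11, drives Aire, and the other held RNA of cTECs from 5 control mice (non-Tg). NOD is a strain prone to autoimmune diabetes and is shared by both groups. The promoter is that of a thymoproteasome subunit made in cortical epithelium, so Aire, which is normally a regulator of medullary epithelium, was placed in another epithelial type. The animal numbers are those of the source labels and were read as pools, 1 per array. With 1 array per group, no value has a replicate error and no test was run.

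In the synthesis pathway, GTP cyclohydrolase 1, the product of Gch1, carries out the first and usually rate-limiting step, and the products of Pts and Spr complete the cofactor. The cofactor is used by the aromatic amino acid hydroxylases, the nitric oxide synthases and alkylglycerol monooxygenase. Pcbd1, Pcbd2 and Qdpr encode enzymes that regenerate it after its oxidation in the reactions of the hydroxylases. In T cells and macrophages, Gch1 is known as an inducible gene, and its product limits how much cofactor the cell holds.

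The promoter of Gch1 is shown because Gch1 was the only one of the 7 genes beyond 2-fold, and those of Gchfr and Qdpr because they were the other members whose window held a CCAAT box. Gchfr encodes the protein that binds GTP cyclohydrolase 1, and Qdpr the last enzyme of recycling. In the rat, a cyclic AMP response element next to a CCAAT box has been described in the Gch1 promoter. Each window runs from 250 bases before to 50 bases after a transcription start in RefSeq (build GRCm38.p6) and is written in the direction of the gene. Capitals mark CCAAT, or ATTGG where it lies on the opposite strand, and TGACGCAA.
Gch1, chr14:47189364-47189663, minus strand: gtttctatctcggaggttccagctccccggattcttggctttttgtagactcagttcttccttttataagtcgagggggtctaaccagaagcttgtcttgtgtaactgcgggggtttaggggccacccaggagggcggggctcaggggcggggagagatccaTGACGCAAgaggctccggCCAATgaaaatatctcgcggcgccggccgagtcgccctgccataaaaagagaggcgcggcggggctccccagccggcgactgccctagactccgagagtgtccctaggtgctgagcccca
Gchfr, chr2:119167538-119167837, plus strand: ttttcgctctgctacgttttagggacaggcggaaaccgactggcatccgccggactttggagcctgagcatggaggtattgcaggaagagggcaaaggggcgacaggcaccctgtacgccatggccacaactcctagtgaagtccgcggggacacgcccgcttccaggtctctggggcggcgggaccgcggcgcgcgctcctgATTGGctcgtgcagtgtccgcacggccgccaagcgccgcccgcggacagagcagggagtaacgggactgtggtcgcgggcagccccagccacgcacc
Qdpr, chr5:45450180-45450479, minus strand: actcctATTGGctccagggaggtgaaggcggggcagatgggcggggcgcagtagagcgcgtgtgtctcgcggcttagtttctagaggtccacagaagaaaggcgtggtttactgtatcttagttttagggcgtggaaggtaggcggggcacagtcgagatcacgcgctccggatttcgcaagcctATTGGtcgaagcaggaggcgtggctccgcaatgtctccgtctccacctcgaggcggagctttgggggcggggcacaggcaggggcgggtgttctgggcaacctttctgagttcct

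In the Gch1 window, TGACGCAA began 88 bases and CCAAT 70 bases before the start, both on the strand of the gene. The longer motif was chosen after the sequence had been read. It was present, on either strand, in 0.49% of the 32851 promoter windows in the table and in 1 of the 7 member windows. CCAAT was present in 37.4% of all windows and in 3 of the 7, at 47 bases before the start in Gchfr and at 244 and 65 bases before it in Qdpr, each time on the opposite strand. The GC box GGGCGG was found in 35.7% of all windows and in 6 of the 7, all but Pcbd2. This motif holds only G and C, which made up 60.3% of the Gch1 window, 60.7% of that of Qdpr and 67% of that of Gchfr. The median over all windows was 52.7%, so the 2 shares of GGGCGG are not compared. TATAAA was found in 13.6% of all windows and in those of Gch1 and Pcbd1, on the opposite strand in both. CCAAT was thus shared by Gch1 and by 2 genes whose levels were less than 2-fold apart, and these matches describe letters, not bound sites.

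Gch1 was lower on the Tg array than on the non-Tg array, while the other 6 genes lay close together. The log2 level of Gch1 was 7.31 in Tg, against 8.82 in non-Tg, which is 159 and 452 on a linear scale. The log2 ratio, Tg minus non-Tg, was -1.51, or 2.84-fold lower in Tg. This is the value that chose the gene, and it is given as a description. In RNA of pooled cells, fewer cells of a type and less RNA per cell cannot be told apart. Of the 11422 genes that reached the overall probe set median of either array (the filter used here, 5.43 in Tg and 5.45 in non-Tg), 5 had a lower ratio. The 1415 other genes whose mean level lay within 0.5 of that of Gch1 had ratios with an SD of 0.344, and the middle 95% of them ran from -0.61 to 0.77. The probe sets of 658 other genes with at least 2 past the filter gave an SD of 0.302 for the ratio of 1 probe set. That SD leaves out variation between animals, RNA pools and amplifications, and Gch1 itself has no second probe set with which its ratio could be compared.

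The genes of the later synthesis enzymes had ratios within 0.13 of 0. Pts, which encodes 6-pyruvoyltetrahydropterin synthase, the second enzyme, had log2 levels of 7.64 in Tg, against 7.75 in non-Tg. Its ratio of -0.11 corresponds to 1.08-fold. Spr, which encodes sepiapterin reductase, the enzyme of the final reductions, had 5.94 in Tg, against 6.07 in non-Tg, a ratio of -0.13. Both ratios were below 0 and smaller in size than the probe set SD of 0.302, and differences of this size cannot be told from the error of a probe set. Genes at the mean levels of Pts and Spr had ratios with SDs of 0.360 and 0.322.

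Gchfr, whose product lets the cofactor inhibit and phenylalanine stimulate GTP cyclohydrolase 1, had log2 levels of 5.73 in Tg, against 5.60 in non-Tg. Its ratio was 0.13, opposite in sign to that of its partner Gch1 and also within the probe set SD. The levels were 0.30 above the array median in Tg and 0.15 above it in non-Tg. Background can compress ratios towards 0 at low levels, and whether it did so here was not tested. Genes at the mean level of Gchfr had ratios with an SD of 0.305.

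Among the recycling genes, Qdpr, which encodes the dihydropteridine reductase that regenerates the active cofactor, had the widest ratio. Its log2 levels were 6.13 in Tg, against 6.39 in non-Tg, a ratio of -0.27 (1.21-fold lower in Tg), which 1826 of the 11422 genes reached or fell below. This ratio too was smaller in size than the probe set SD of 0.302, and genes at its mean level had ratios with an SD of 0.347. Pcbd2, which encodes a carbinolamine dehydratase that also serves as a dimerisation cofactor of the transcription factor HNF1, had 10.08 in Tg, against 10.19 in non-Tg. The ratio was -0.11, against an SD of 0.217 among the 260 other genes within 0.5 of its mean level. Pcbd1, the other dehydratase and HNF1 cofactor gene, had 5.20 in Tg, against 5.00 in non-Tg, under the median on both arrays, and did not pass the filter. Its ratio of 0.20 therefore stands close to background, and raising the floor to the 50th percentile of all values took it to 0.00.

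**Figure D1:**
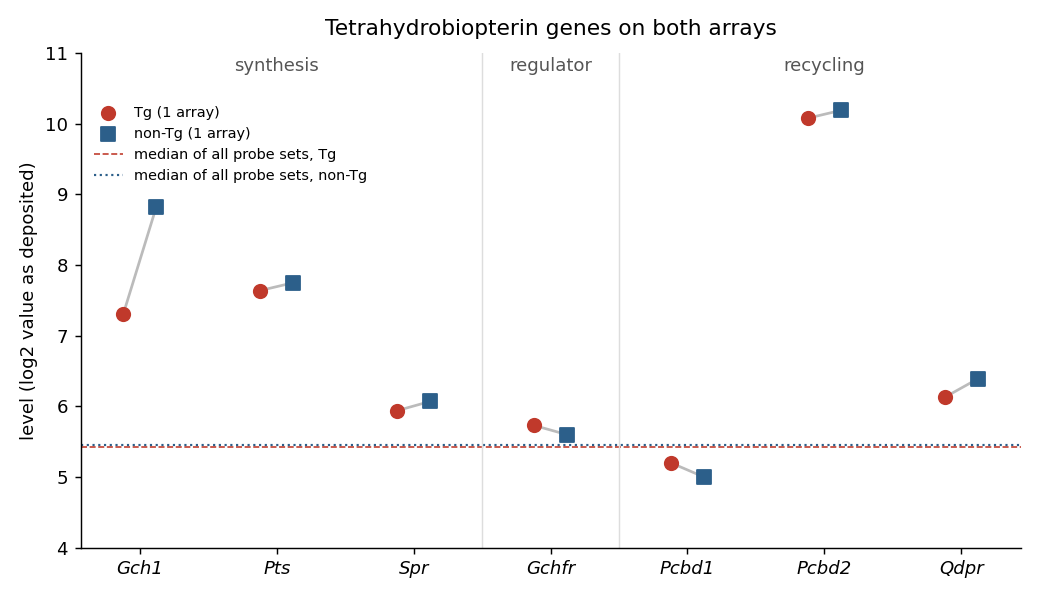
Log2 levels of the 7 genes on the Tg array (circles) and the non-Tg array (squares), with the median of all probe sets of each array as horizontal lines. Gch1 stands at 7.31 in Tg, against 8.82 in non-Tg, the other 6 pairs differ by 0.27 or less, and Pcbd1 lies under both medians.

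Of the 7 genes, 6 passed the filter, 1 was 2-fold or more lower in Tg and 0 were 2-fold or more higher. The same rule called 0.376% of all genes past the filter lower and 0.797% of them higher in Tg, 1.17% in both directions. Since Gch1 was chosen for its ratio, nothing is read from its own count. The other 6 genes lay between -0.27 and 0.20, a range that held 58.7% of all genes past the filter. Their ratios were above 0 for 2 genes and below 0 for 4, with a median of -0.11, against 0.01 for all genes past the filter. The gap between Gch1 and Qdpr, the next lowest member, was 1.24 on the log2 scale. Gch1 stood at the low end of the distribution, the place from which it was chosen. The other 6 ratios had from 16% (Qdpr) to 74.7% (Pcbd1) of genes past the filter at or below them, though Pcbd1 itself did not pass.

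**Figure D2:**
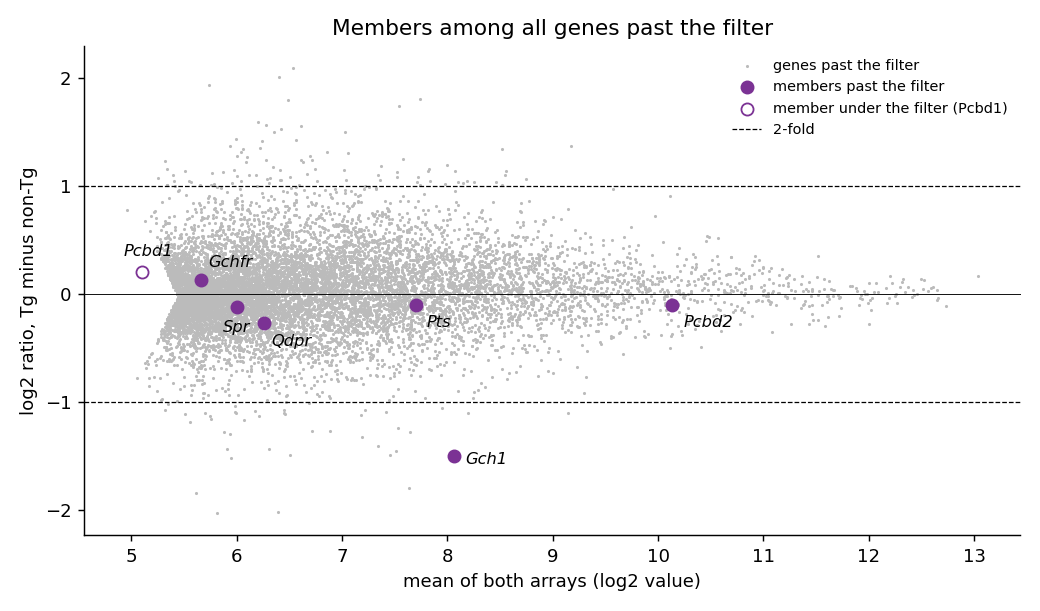
Log2 ratio (Tg minus non-Tg) against the mean log2 level of both arrays for the 11422 genes past the filter (grey) and the 7 members (purple, open for Pcbd1, which did not pass). Gch1 lies at -1.51, below the dashed 2-fold line, and the other members lie between -0.27 and 0.20.

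The enzymes that use the cofactor were dim on both arrays. Of 8 listed genes, 7 were measured and 0 passed the filter, with levels between 4.51 and 5.39 in Tg and between 4.48 and 5.39 in non-Tg. The nitric oxide synthase genes Nos3 and Nos1 had 5.39 and 5.30 in Tg, against 5.39 and 5.19 in non-Tg. Th, which encodes the tyrosine hydroxylase of catecholamine synthesis, had 5.34 on both arrays, and Tph1, the tryptophan hydroxylase gene of peripheral tissues, had 5.13 in Tg, against 5.10 in non-Tg. Ratios in this list ran from 0.00 to 0.11, with a median of 0.01, and Tph2 and Agmo were under the floor of 4.80, the 25th percentile of all values, on both arrays. A transcript present near background cannot be told from none on these arrays.

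The GTP supply list, made of genes of guanine nucleotide synthesis, held 6 measured genes with a median ratio of 0.08, and 5 of them passed the filter and 0 were beyond 2-fold. Gmps, which encodes the GMP synthetase, had 8.61 in Tg, against 8.08 in non-Tg, a ratio of 0.52 that 705 of the 11422 genes reached or exceeded. Guk1, the guanylate kinase gene, had a ratio of -0.33, Hprt, the purine salvage gene, 0.23, and Nme1, a nucleoside diphosphate kinase gene, -0.07. The members of this list therefore lay on both sides of 0. Cbr1, a carbonyl reductase gene whose product can reduce pterin intermediates, had 7.28 in Tg, against 7.59 in non-Tg, a ratio of -0.31, and was the only measured gene of the 3 listed for salvage and carbonyl reduction.

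The folate cycle, which shares pterin chemistry with this pathway, had 12 measured genes, all 12 of them past the filter and 0 beyond 2-fold. Their ratios ran from -0.37 to 0.43, with 8 above 0 and 4 below and a median of 0.06. Atic, a purine synthesis gene, had a ratio of 0.03, and Ggh, the gamma-glutamyl hydrolase gene, had -0.23. Tyms, the thymidylate synthase gene, had 6.76 in Tg, against 7.11 in non-Tg, a ratio of -0.36. The mitochondrial folate enzyme gene Mthfd2 had 6.84 in Tg, against 6.48 in non-Tg, a ratio of 0.35. These 2 ratios had opposite signs, but each was only slightly larger in size than the probe set SD of 0.302.

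Of the arginine and nitric oxide genes, 8 were measured, 5 passed the filter and 0 were beyond 2-fold. Ddah1, which encodes the enzyme that breaks down the nitric oxide synthase inhibitor asymmetric dimethylarginine, had 7.90 in Tg, against 8.73 in non-Tg. Its ratio of -0.83 (1.78-fold lower in Tg) was the lowest of the 47 measured genes in the 7 surrounding lists, and 0.867% of genes past the filter were at or below it. Ddah2, which encodes a related enzyme, had 6.08 in Tg, against 5.85 in non-Tg, a ratio of 0.23. Nosip, whose product binds nitric oxide synthase, had a ratio of 0.52, and Asl, the argininosuccinate lyase gene, -0.04. The list median was -0.02. The monoamine list had 1 of 6 measured genes past the filter and a median of -0.02. That gene was Maoa, the monoamine oxidase A gene, at 6.16 in Tg, against 5.80 in non-Tg, while Slc18a1, Slc18a2 and Ddc were under the median on both arrays.

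Interferon gamma and tumour necrosis factor raise Gch1 in macrophages and endothelial cells, and genes of that signalling were measured as well. All 7 measured members passed the filter, 0 were beyond 2-fold, and the median ratio was 0.16. Ifngr1, which encodes the ligand-binding chain of the interferon gamma receptor, had 8.63 in Tg, against 9.37 in non-Tg. Its ratio was -0.74 (1.67-fold lower in Tg), and 1.39% of genes past the filter were at or below it. The receptor's other chain, Ifngr2, had 7.93 in Tg, against 7.65 in non-Tg, a ratio of 0.28. The kinase genes Jak1 and Jak2 had ratios of 0.20 and 0.25, and Irf1, an interferon-induced transcription factor gene, had 8.93 in Tg, against 8.79 in non-Tg. This probe set gave a ratio of 0.14, and the other one 0.34. Apart from Ifngr1 and Rela, which had -0.08, the list lay above 0.

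**Figure D3:**
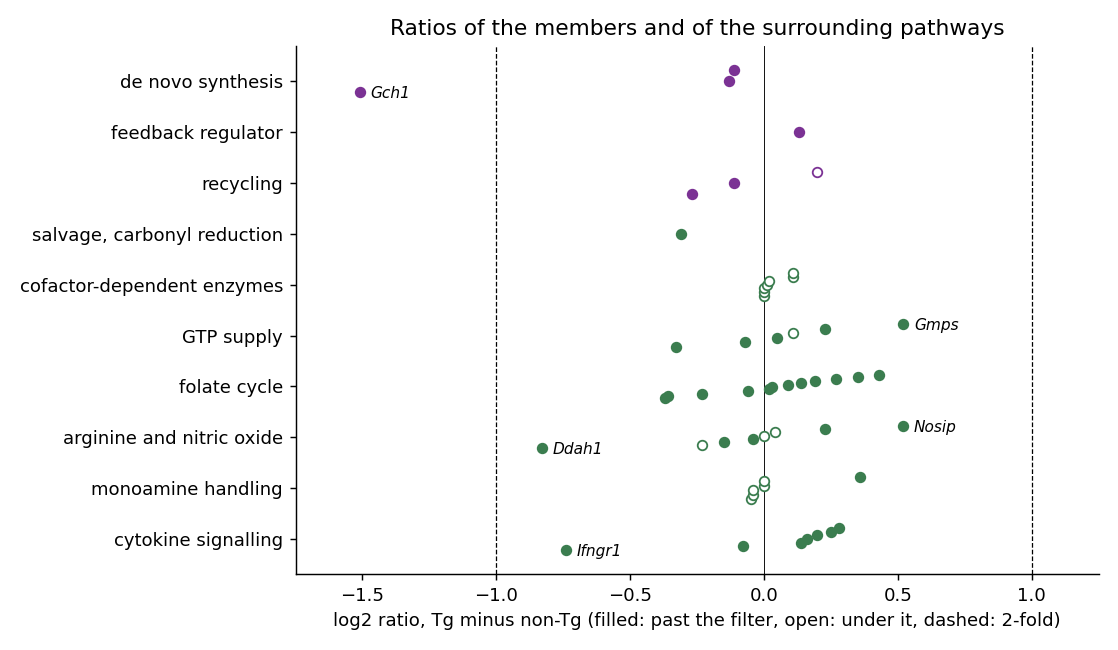
Log2 ratio (Tg minus non-Tg) of each measured gene, by list, with members in purple and genes of the 7 surrounding lists in green. Filled points passed the filter, open points did not, and Gch1 at -1.51 is the only gene beyond the dashed 2-fold lines.

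The genes that lie beside Gch1 on chromosome 14 were measured on the same arrays. Of the 3 measured genes on either side in the RefSeq order, 4 of 6 passed the filter and 0 were beyond 2-fold, with ratios between -0.37 and 0.21. Wdhd1, the nearest gene on one side, which encodes a DNA replication protein, had 6.11 in Tg, against 6.20 in non-Tg. Socs4 had 6.91 in Tg, against 6.70 in non-Tg, and Mapk1ip1l had 7.99 in Tg, against 7.91 in non-Tg. On the other side, the long noncoding RNA gene Gm10371 and Samd4 were under the filter, and Cgrrf1 had the lowest ratio of the 6, at 6.32 in Tg, against 6.69 in non-Tg.

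**Figure D4:**
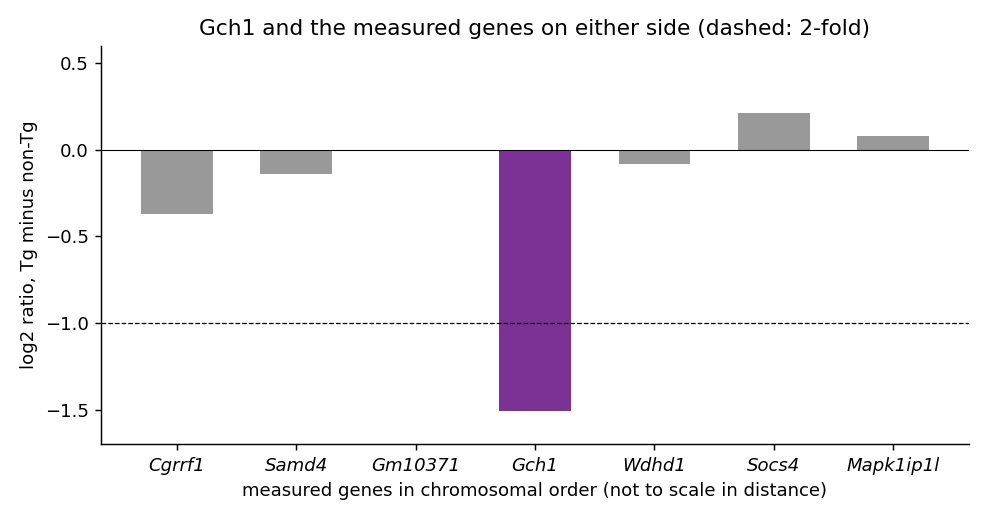
Log2 ratio (Tg minus non-Tg) of Gch1 and of the 3 nearest measured genes on either side, in chromosomal order, with 1 bar per gene and no error bars because each group has 1 array. Gch1 reaches -1.51 and the others lie between -0.37 and 0.21.

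The arrays were checked against their labels. Aire had 7.33 in Tg, against 6.06 in non-Tg, 2.43-fold higher in Tg, and Psmb11, the source of the promoter, had 10.51 in Tg, against 10.15 in non-Tg. All 10 cortical epithelial markers passed the filter, with ratios between 0.01 and 0.48 and linear levels summing to 19583 in Tg, against 18263 in non-Tg. The cortical ratios, all above 0, had a median of 0.12. Thymocyte RNA was present on both arrays: 8 of 9 measured thymocyte genes passed, with sums of 4575 in Tg, against 4917 in non-Tg. Their ratios ran from -0.28 to 0.18, with 2 above 0 and 7 below and a median of -0.04.

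Markers of other cells that a cTEC preparation could hold are given beside the Gch1 ratio. Of 10 macrophage and dendritic cell genes, 2 passed the filter, and the sums were 378 in Tg, against 398 in non-Tg. Tyrobp, an adaptor gene of myeloid cells, had 6.08 in Tg, against 6.66 in non-Tg, C1qa, a complement gene, had 5.40 in Tg, against 5.71 in non-Tg, and the integrin genes Itgam and Itgax were under the floor on both arrays. Those that passed had ratios of -0.58 and -0.31, while over all 10 the ratios ran from -0.58 to 0.36, with 5 above 0, 3 at 0 and 2 below and a median of 0.02. Of 10 mast cell genes, 1 passed, with sums of 289 in Tg, against 297 in non-Tg, and Cpa3, Mcpt4, Tpsab1, Fcer1a and Ms4a2 were under the floor on both arrays. Endothelial genes summed to 826 in Tg, against 824 in non-Tg with 8 of 10 past the filter, and medullary epithelial genes to 2191 in Tg, against 1827 in non-Tg with 6 of 8. The brightest medullary gene was Krt5, a keratin gene, at 10.73 in Tg, against 10.39 in non-Tg. Over the medullary list, ratios ran from -0.39 to 0.34, with 4 above 0 and 4 below and a median of -0.01. Fibroblast genes had sums of 1315 in Tg, against 1475 in non-Tg with 6 of 9 past the filter, and ratios from -0.68 for Thy1, which thymocytes also express, to 0.51 for Postn, a matrix protein gene. Of these fibroblast ratios 5 were above 0 and 4 below, with a median of 0.03. B cell genes had sums of 289 in Tg, against 304 in non-Tg with 2 of 9 past the filter, and Cd79a, Ms4a1 and Fcer2a were under the floor on both arrays. Of all 75 measured markers, 0 were 2-fold apart, but those under the filter could not be called. The same rule called 1.17% of all genes past the filter. A count of 0 is near that share, so nothing about the cell make-up is read from it. The part of other cells in the Gch1 ratio was not tested.

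The labels do not give the sex of the animals. Xist, the RNA of the inactive X chromosome, had 7.78 in Tg, against 6.28 in non-Tg, and the Y-linked Eif2s3y had 6.40 in Tg, against 7.36 in non-Tg. The Y-linked Kdm5d, also past the filter, had a log2 ratio of -0.08, and Uty, which did not pass, had 4.94 in Tg, against 5.45 in non-Tg. The part of these differences in the Gch1 ratio was not tested.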

How the data were processed

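Per the labels' protocols, 400 pg of total RNA was amplified by Ovation One-Direct, and 5.5 µg of the cDNA was cut and labelled with biotin. The authors deposited a table of 28856 probe sets with 1 log2 value on each array. The log2 scale was inferred from the range, 4.22 to 13.7 in Tg and 4.22 to 13.6 in non-Tg. Their background correction, normalization and summarisation methods were not given in the sources used here, and no detection calls or scan dates were used. Values bounded below can compress the ratios of dim genes towards 0.

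Genes were named from GEO's platform annotation, in which 21789 probe sets had 1 symbol, 1621 had several and 5446 had none here. All 7 member gene IDs were found under the same symbol in a RefSeq table of GRCm38.p6, which also gave the gene order, and 7 of 7 had a promoter window in RefSeq's sequences. Each of the 19938 genes was represented by its probe set of highest mean. Values under the 25th percentile of both arrays (4.80) were raised to it, and the ratio was Tg minus non-Tg. A gene passed the filter if it reached the median of either array, and 2-fold (a log2 ratio of 1) was a rule of size in place of a test. Linear values are 2 to the power of the log2 level, and their sums over a list are dominated by its highest probe sets.

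The members, lists and rules were chosen with earlier results of these data known. Named genes were all members, Aire and Psmb11, up to 4 genes of each surrounding list with the highest mean level, the 5 genes nearest to Gch1 in both levels, and 3 measured genes on either side of it. Rela, Ifngr2, Tph2, Agmo and the marker and sex-linked genes named singly fall outside that rule and were chosen after their values were seen. Alternatives changed the floor, the scaling, the probe set rule, the filter and the fold. Python 3.11.15 with numpy 2.4.6, pandas 2.3.3 and matplotlib 3.10.9 was used, and the rule of size was tested on simulated data. That simulation used a chosen noise and did not model animals, RNA pools or amplifications. It therefore tells nothing about the error of these arrays. The number of arrays, 1 per group, limits the precision.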

Additional observations from a re-analysis of the deposited data

How the results depend on the processing

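No paired analysis was possible because each group has 1 array and no result comes from a test. The 3 other floors could not change the ratio of Gch1, since both of its levels lie above them, and it stayed at -1.51. Median centring gave -1.49 and quantile normalization -1.55. Under these 5 alternatives the ratios of Pts, Spr, Pcbd2 and Qdpr stayed below 0 and that of Gchfr above 0. The ratio of Qdpr lay between -0.28 and -0.25. The ratio of Pcbd1 ran from 0.00, with the floor at the 50th percentile, to 0.22. The mean over probe sets could not be tried for the members, which have 1 each. Under all 9 alternatives 1 member was lower and 0 were higher in Tg, at 1.5-fold too. The floors, the filters, the probe set mean and the looser fold could not have removed the Gch1 call. Over all genes, at 1.5-fold 357 were lower and 541 higher in Tg, against 43 lower and 91 higher at 2-fold. The other alternatives gave 29 to 47 lower and 66 to 98 higher. The 7 surrounding lists held 0 genes beyond 2-fold under every alternative tried for them, but 1.5-fold was not tried for them. Ddah1 and Ifngr1, 1.78-fold and 1.67-fold lower in Tg, lie beyond 1.5-fold. The median ratios of these lists moved by less than the probe set SD of 0.302, and median centring shifted all ratios by 0.02. Levels near the array median limit what can be seen for Pcbd1, Gchfr and the cofactor-dependent enzymes.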

Other observations

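The 5 genes whose pair of levels lay nearest to that of Gch1 were, in order, Gosr2, Ccnk, Zfp706, Dram2 and S100a1, at distances of 0.34 to 0.50 log2 units over the 2 arrays. Gosr2, which encodes a SNARE protein of Golgi transport, had 7.64 in Tg, against 8.75 in non-Tg, and was 2.16-fold lower in Tg (log2 ratio -1.11). Ccnk, the cyclin K gene, had 7.43 in Tg, against 8.48 in non-Tg, a ratio of -1.06. Zfp706, Dram2 and S100a1 had ratios of -0.90, -0.96 and -0.91 and did not reach 2-fold. They were picked for standing near Gch1 in both levels, so their ratios follow from that choice. None of the 5 had a ratio as low as that of Gch1, which was itself chosen for its ratio, so nothing is read from this.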
